A study of Mus musculus with 14 samples.

Results

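The 43 genes described here encode the enzymes that carry pyruvate into the mitochondrion and to acetyl-CoA, the TCA cycle, the breakdown of the branched-chain amino acids leucine, isoleucine and valine, and the use of ketone bodies. The rule lists them by name and uses no measured value, although it was written with earlier results of these data known. They comprise 8 genes of pyruvate entry, 18 of the TCA cycle, 14 of branched-chain catabolism and 3 of ketone use. All 43 had a row among the 51912 genes counted and all 43 were among the 15651 genes that passed the filter on low counts. They were measured by RNA sequencing of whole mouse hearts on the C57BL/6J background, in 14 libraries. Genotype was wild type (WT in the labels) or Clk3 KO, a knockout of the CDC-like kinase Clk3, a regulator of pre-mRNA splicing factors. Surgery was sham or TAC, taken as transverse aortic constriction, which narrows the aorta and loads the left ventricle. Wild type gave 4 sham and 2 TAC libraries, and knockout 4 of each. Sham libraries 1 and 2 of both genotypes were from mice aged 11 weeks, and the other 10 libraries from mice aged 10 weeks. The labels give neither the time under TAC, the sex, the hour of collection, the form of the Clk3 allele nor a mouse of origin for each library. The spread behind the p-values is therefore that of these libraries and may be partly technical.

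The heart draws most of its ATP from mitochondrial oxidation. Pyruvate enters through the mitochondrial pyruvate carrier and is converted to acetyl-CoA by the pyruvate dehydrogenase complex, which kinases of the PDK family switch off. Branched-chain amino acids are first transaminated by BCAT2, and the resulting keto acids pass the branched-chain keto acid dehydrogenase complex (BCKDH), which the kinase BCKDK switches off and the phosphatase PPM1K switches on. Ketone bodies are oxidised by BDH1, OXCT1 and ACAT1, and all of these routes deliver carbon to the TCA cycle. Lower expression of branched-chain catabolic genes is a known feature of the failing heart.

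Some libraries stood apart from their groups, and the main counts and calls that use wild-type TAC 1 are also given without it. Gene counts ranged from 11385818 to 20369637 per library. The library labelled wild-type TAC 1 had 54.2 CPM of Clk3, within the 50.7 to 67.4 CPM of the 8 knockout libraries, while the other 5 wild-type libraries had 73.2 to 96 CPM. CPM are counts scaled to a common library total, on libraries scaled by TMM, a method that corrects for differences in composition. Gm8730, a processed copy of the ribosomal gene Rplp0, was at 66.8 CPM in wild-type TAC 1 and at 57.4 to 67.1 CPM in the knockouts, whereas the other 5 wild types had 1.26 to 1.63 CPM. Both genes therefore placed the library labelled wild-type TAC 1 with the knockouts, against its label, and wild-type TAC 2 was the only other wild-type TAC library. A score of circadian clock genes (mean log2 CPM of 4 genes minus that of 8 others) ran from −3.32 to −2.9 in 7 of the 8 sham libraries and was −1.26 in knockout sham 4. It ran from −1.36 to −0.917 in 5 of the 6 TAC libraries and was −2.63 in knockout TAC 3, so clock state and TAC were largely aligned. Reads assigned to no counted feature made up 15.8% ± 1.37 in sham and 12.8% ± 2.92 after TAC in wild type (SD, n = 4 and 2), and 18% ± 0.833 and 13.3% ± 0.87 in knockout (n = 4 and 4). The part of this share in the results was not tested. None of 12 cardiomyocyte markers was at 0, and their summed level was 42824 CPM ± 2700 in wild-type sham (SD, n = 4).

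Promoter sequences are given for the members that passed the test after TAC in both genotypes, since these genes carry the main result. These were Aldh6a1, Bckdhb, Dbt, Mccc2 and Bdh1, of which Dbt had no entry. Each window runs from 250 bases before to 50 after a RefSeq start on GRCm38.p6, 5′ to 3′ on the strand of the gene. Capitals mark CCAAT on either strand and, in Mccc2, also CACGTG. Where a gene had more than 1 listed start, the first was used. The windows lie at chr12:84450975-84451274 (minus strand) for Aldh6a1, chr9:83924887-83925186 (plus) for Bckdhb, chr13:100015590-100015889 (minus) for Mccc2 and chr16:31422047-31422346 (plus) for Bdh1.
Aldh6a1: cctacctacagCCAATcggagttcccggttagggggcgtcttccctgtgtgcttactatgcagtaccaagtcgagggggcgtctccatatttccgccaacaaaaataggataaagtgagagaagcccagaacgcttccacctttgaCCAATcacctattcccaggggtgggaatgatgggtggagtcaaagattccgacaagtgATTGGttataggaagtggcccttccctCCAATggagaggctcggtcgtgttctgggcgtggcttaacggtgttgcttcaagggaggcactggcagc
Bckdhb: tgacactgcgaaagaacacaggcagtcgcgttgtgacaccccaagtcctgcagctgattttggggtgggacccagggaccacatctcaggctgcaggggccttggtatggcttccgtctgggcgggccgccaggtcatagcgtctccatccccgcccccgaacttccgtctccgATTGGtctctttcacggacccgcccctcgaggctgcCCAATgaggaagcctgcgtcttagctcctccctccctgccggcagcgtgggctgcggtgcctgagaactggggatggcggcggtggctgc
Mccc2: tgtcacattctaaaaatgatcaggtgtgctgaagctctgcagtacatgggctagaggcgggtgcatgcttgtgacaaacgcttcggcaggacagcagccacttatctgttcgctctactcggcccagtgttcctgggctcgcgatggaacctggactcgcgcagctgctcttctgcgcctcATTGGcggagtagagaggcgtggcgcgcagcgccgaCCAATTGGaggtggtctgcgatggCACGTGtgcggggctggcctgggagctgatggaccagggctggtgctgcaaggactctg
Bdh1: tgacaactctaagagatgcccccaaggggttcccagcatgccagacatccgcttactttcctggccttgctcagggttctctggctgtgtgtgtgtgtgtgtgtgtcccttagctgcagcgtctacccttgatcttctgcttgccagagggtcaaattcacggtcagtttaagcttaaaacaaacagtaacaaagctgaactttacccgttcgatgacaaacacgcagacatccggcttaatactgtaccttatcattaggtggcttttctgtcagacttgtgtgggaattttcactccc

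The pentamer CCAAT, chosen after the windows had been seen, occurred 4 times in the Aldh6a1 window, 2 times in that of Bckdhb and 3 times in that of Mccc2, where 2 of the 3 matches share bases. It did not occur in the Bdh1 window. The windows of Bcat2, Bckdha, Pccb and Suclg1, which fell in wild type, also lacked it. Bckdk, Hibadh and Ogdh, which did not pass, had it. Its relation to the change after TAC was not tested. CCAAT was in 23 of the 39 members with a window (59.0%), in 8 of the 13 branched-chain members with one, and in 38.0% of 27025 gene windows. Other motifs were CCGGAAG (ETS factors, 7 of 39 members, 9.14% of all windows), CCCCACCC (KLF factors, 3 of 39, 9.88%), CACGTG (E-box, 2 of 39, 7.24%) and AAGGTCA (ERR element, 1 of 39, 4.65%). TTATGTAA (D-box, 0.958% of all windows) and the NRF1 site (0.981%) were in none of the 39. Both strands were searched in each case. A match describes letters in the window and not binding.

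In wild-type sham hearts the TCA cycle genes were the most abundant group. Levels between genes are given as CPM per kilobase of merged exons, which understates genes whose annotation includes long exons that the heart does not use. Idh2, the NADP-dependent mitochondrial isocitrate dehydrogenase, had 613 ± 53.8 (SD, n = 4), and Mdh1, the cytosolic malate dehydrogenase, had 607 ± 99.7. Their ranges overlapped (545 to 674 and 529 to 750), so their order is not set. The TCA genes reached down to Suclg2, the GTP-forming subunit of succinyl-CoA ligase, at 45 ± 2.3, below its ATP-forming counterpart Sucla2 at 201 ± 32. In the pyruvate group the range was from Pdha1, the E1 alpha subunit of pyruvate dehydrogenase, at 341 ± 14.4, to the kinase Pdk1 at 35.5 ± 2.96. Oxct1, which activates acetoacetate, had 447 ± 27.7 among the ketone genes, above Acat1 (189 ± 21.8) and Bdh1 (33.8 ± 9.02).

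Branched-chain genes were lower, from Bckdha at 164 ± 10 CPM per kilobase to Auh, the methylglutaconyl-CoA hydratase of leucine breakdown, at 12.1 ± 0.558. Bckdha (155 to 177) lay above Ivd (81.7 to 89.1), the isovaleryl-CoA dehydrogenase of the leucine route, without overlap. Ivd lay above Pccb (56.9 to 69.2), a subunit of propionyl-CoA carboxylase. Pccb overlapped Aldh6a1 (54.9 to 59.7), the methylmalonate semialdehyde dehydrogenase of the valine route. Within BCKDH the E1 alpha gene Bckdha stood well above the E1 beta gene Bckdhb (34.6 to 37.3) and the E2 gene Dbt (35.7 to 40.3), and the ranges of Bckdhb and Dbt overlapped.

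**Figure D1:**
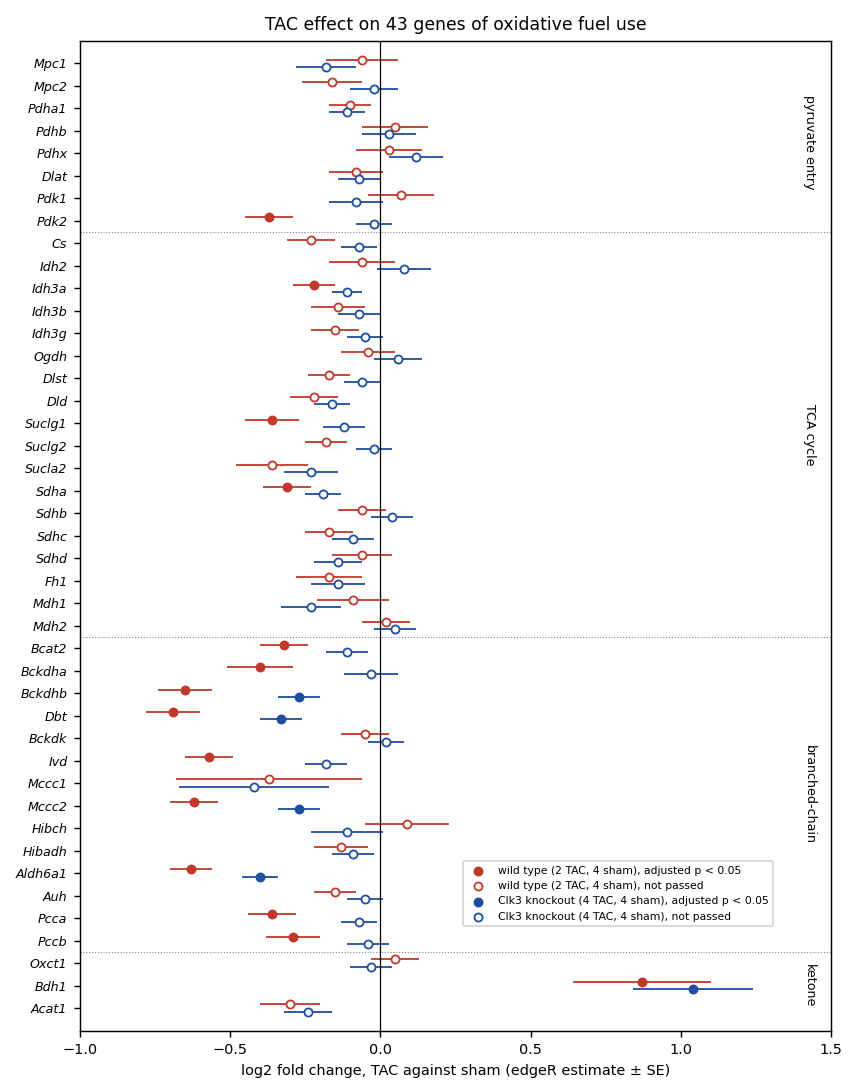
Log2 fold change of each of the 43 genes after TAC against sham (x axis, edgeR estimate ± SE) in wild type (red) and Clk3 knockout (blue), grouped by step (y axis). Filled points passed an adjusted p of 0.05. In the branched-chain group 9 of 14 genes are filled below 0 in wild type and 4 in knockout, and Bdh1 is filled above 0 in both.

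TAC in wild-type hearts was followed by lower expression of 9 of the 14 branched-chain genes and of 4 of the 26 TCA cycle and pyruvate genes. Of the 43 members 13 fell and 1 rose at an adjusted p of 0.05 (edgeR quasi-likelihood test, Benjamini-Hochberg over 15651 genes), against 5.3% of all genes tested that fell and 6.91% that rose. Those that fell were 9 of 14 branched-chain genes, 3 of 18 TCA genes (Idh3a, Suclg1 and Sdha), 1 of 8 pyruvate genes (Pdk2) and none of the 3 ketone genes. The median log2 fold change was −0.36 for branched-chain genes, −0.17 for TCA genes, −0.07 for pyruvate genes and 0.05 for ketone genes, beside 0.00 over all genes tested. The libraries did not overlap, with TAC lower, for 23 of the 43 members, against 14.2% of all genes. Summed over the 14 branched-chain genes the level fell short of sham by 22.5% (2719 CPM ± 117, n = 4, in sham and 2106 ± 77.6, n = 2, after TAC), whereas the TCA sum was lower by 9.56% (15644 ± 598 and 14149 ± 308). The ketone sum was 2497 ± 172 and 2531 ± 264. These sums were not tested.

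The BCKDH complex, the committed step of the pathway, had lower transcripts for all 3 of its own subunits. Dbt (ENSMUSG00000000340.10, chromosome 3, 116513070 to 116549981, GRCm38), the E2 transacylase, was at 135, 121, 131 and 120 CPM in wild-type sham and at 77 and 79.6 CPM in wild-type TAC. Both TAC libraries lay far below the sham range. The log2 fold change was −0.69 ± 0.09 (SE; adjusted p = 0.000117). Bckdhb (ENSMUSG00000032263.14, chromosome 9, 83925145 to 84124240), the E1 beta subunit, was at 67.3, 62.5, 65.8 and 66.3 CPM in sham and at 37.1 and 46.2 CPM after TAC. The groups did not overlap, and the log2 fold change was −0.65 ± 0.09 (adjusted p = 0.000393). The library labelled wild-type TAC 1 was the lower of the pair. Bckdha, the E1 alpha subunit, stood at 295 to 336 CPM in sham and at 204 and 267 CPM after TAC, a log2 fold change of −0.40 ± 0.11 (adjusted p = 0.028). It shares 61.7% of its exonic bases with the antisense gene B3gnt8, whose level over the 14 libraries was 3.75 to 6.06 CPM.

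The enzymes that set the activity of BCKDH did not move alike. Bckdk, the inactivating kinase, was at 97.9 to 107 CPM in sham and at 97.8 and 98.5 CPM after TAC (log2 fold change −0.05 ± 0.08, adjusted p = 0.736). Ppm1k, the activating phosphatase, was at 205, 215, 213 and 153 CPM in wild-type sham and at 90.6 and 106 CPM after TAC. It fell by 1.00 ± 0.14 on the log2 scale (adjusted p = 0.000232), and all TAC values lay below all sham values. Bcat2, the transaminase upstream of the complex, fell by 0.32 ± 0.08 (adjusted p = 0.0188), from 159 CPM ± 4.2 to 127 ± 13.1.

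Downstream of BCKDH the leucine, valine and propionyl-CoA steps each held genes that fell. Aldh6a1 (ENSMUSG00000021238.11, chromosome 12, 84430717 to 84451004), of the valine route, was at 320, 317, 345 and 320 CPM in sham and at 203 and 216 CPM after TAC. Its log2 fold change was −0.63 ± 0.07 (adjusted p = 5.77e-05), the smallest p among the members. Both TAC libraries were far under the sham range. Mccc2 (ENSMUSG00000021646.9, chromosome 13, 99948530 to 100015639), the beta subunit of methylcrotonyl-CoA carboxylase in the leucine route, was at 91.6, 89.9, 96.9 and 87 CPM in sham and at 56.5 and 62.8 CPM after TAC. It fell by 0.62 ± 0.08 (adjusted p = 0.000217), again without overlap. Ivd (ENSMUSG00000027332.11, chromosome 2, 118861954 to 118882909) was at 450, 491, 480 and 479 CPM in sham and at 297 and 344 CPM after TAC. Its log2 fold change was −0.57 ± 0.08 (adjusted p = 0.000428).

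Propionyl-CoA carboxylase, which receives carbon from isoleucine and valine, had lower transcripts for both subunits. Pcca (ENSMUSG00000041650.15, chromosome 14, 122534324 to 122891100) was at 104, 114, 119 and 119 CPM in sham and at 88.2 and 90.4 CPM after TAC (log2 fold change −0.36 ± 0.08, adjusted p = 0.00601). The TAC libraries lay close together and below every sham library. Pccb changed by −0.29 ± 0.09 (adjusted p = 0.0345). The other 5 branched-chain genes did not pass the test. Bckdk, Auh and the valine-route enzymes Hibch and Hibadh ranged from −0.15 to 0.09 on the log2 scale. Mccc1, the alpha subunit paired with Mccc2, was at −0.37 ± 0.31 (adjusted p = 0.484).

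Among the pyruvate genes Pdk2 was the single member to pass. Pdk2 (ENSMUSG00000038967.13, chromosome 11, 95026258 to 95041354), a kinase that inactivates pyruvate dehydrogenase, was at 355, 397, 393 and 425 CPM in sham and at 296 and 314 CPM after TAC, and fell by 0.37 ± 0.08 on the log2 scale (adjusted p = 0.00633). The other kinase on the list, Pdk1, was at 0.07 ± 0.11 (adjusted p = 0.731). Pdha1 (ENSMUSG00000031299.10, chromosome X, 160122209 to 160138413) was at 1217 to 1334 CPM in sham and at 1226 and 1149 CPM after TAC, with overlapping groups (−0.10 ± 0.07, adjusted p = 0.42). The carriers Mpc1 and Mpc2 and the other complex subunits Pdhb, Pdhx and Dlat lay between −0.16 and 0.05, and none passed. Mpc1 has a named processed copy, Mpc1-ps, so its counts are uncertain. Copies of members under names unlike that of the gene were not searched for.

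In the TCA cycle 17 of 18 genes had a log2 fold change below 0, by small amounts. Sdha (ENSMUSG00000021577.14, chromosome 13, 74322254 to 74350280), the flavoprotein of succinate dehydrogenase, was at 1549, 1549, 1560 and 1542 CPM in sham and at 1181 and 1315 CPM after TAC. It fell by 0.31 ± 0.08 (adjusted p = 0.0175), while Sdhb, Sdhc and Sdhd, the other subunits of the same complex, were at −0.06, −0.17 and −0.06 and did not pass. The sham libraries were nearly equal for Sdha, and the TAC libraries differed from one another by more than the whole sham range. Suclg1 (ENSMUSG00000052738.14, chromosome 6, 73248382 to 73276911), the shared subunit of succinyl-CoA ligase, was at 471, 378, 427 and 413 CPM in sham and at 345 and 316 CPM after TAC (−0.36 ± 0.09, adjusted p = 0.0186). Its partner Sucla2 had the same size of log2 fold change, −0.36 ± 0.12, and did not pass (adjusted p = 0.0604). Idh3a, the catalytic subunit of NAD-dependent isocitrate dehydrogenase, passed narrowly (−0.22 ± 0.07, adjusted p = 0.0447). Mdh2, the mitochondrial malate dehydrogenase, was at 0.02 ± 0.08.

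Ketone genes diverged. Bdh1 (ENSMUSG00000046598.14, chromosome 16, 31422280 to 31458901), which oxidises beta-hydroxybutyrate, was at 118, 101, 124 and 182 CPM in wild-type sham and at 300 and 180 CPM after TAC. It rose by 0.87 ± 0.23 on the log2 scale (adjusted p = 0.0231), although wild-type TAC 2, at 180 CPM, lay within the sham range. Oxct1 was at 1534 to 1770 CPM in sham and at 1817 and 1614 CPM after TAC (0.05 ± 0.08, adjusted p = 0.739). Acat1 (ENSMUSG00000032047.5, chromosome 9, 53580522 to 53610382), the mitochondrial thiolase that also serves isoleucine, was at 642 to 808 CPM in sham and at 602 and 551 CPM after TAC. Both TAC values were below the sham range, and the log2 fold change of −0.30 ± 0.10 did not pass (adjusted p = 0.0659).

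**Figure D2:**
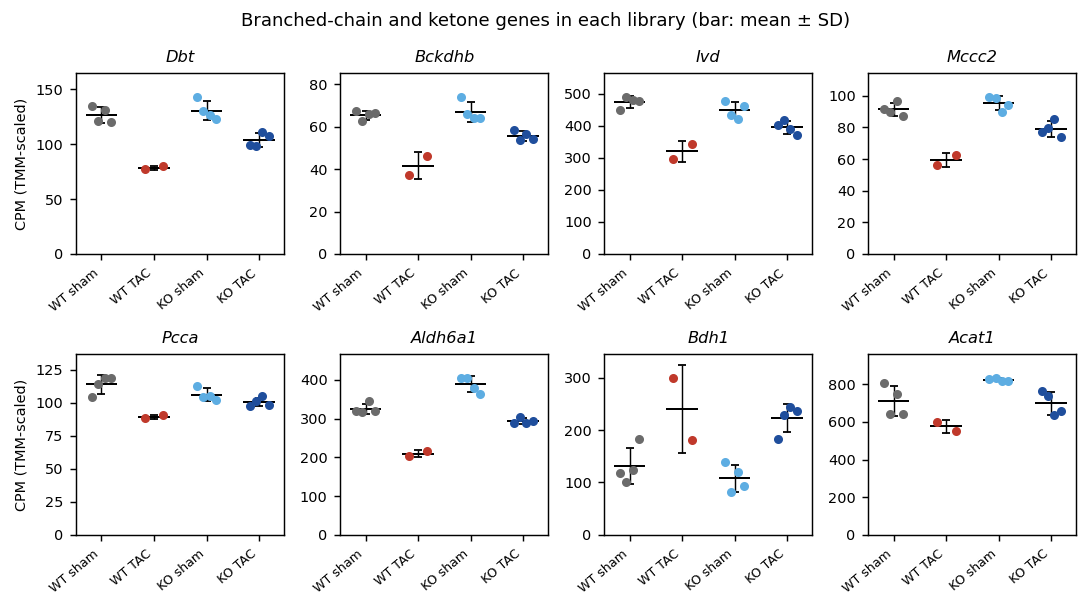
CPM (y axis) of 8 branched-chain and ketone genes in each library (points) by group (x axis), with bars at the mean ± SD. Wild-type TAC libraries lie below all sham libraries for Dbt, Bckdhb, Ivd, Mccc2, Pcca and Aldh6a1, and Bdh1 lies higher after TAC with overlap in wild type (180 against at most 182 CPM).

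Without the library labelled wild-type TAC 1, Dbt, Bckdhb, Ivd, Mccc2 and Aldh6a1 kept the call among the 13 members that fell. Their log2 fold changes were −0.67, −0.50, −0.47, −0.54 and −0.59. That fit leaves 1 wild-type TAC library, assumed to vary like the other groups. Fewer of all genes tested passed in it too, so the shares over all genes given above do not apply to it. The number of calls kept is therefore not read as a share of the members. The other 8 lost the call, with Pdk2 at −0.32, Sdha at −0.24, Suclg1 at −0.42, Bckdha at −0.22 and Pcca at −0.34. Bdh1 dropped to 0.45 ± 0.27 (adjusted p = 0.444), so its rise in wild type rests on that library. Bdh1 also lost the call without wild-type sham 2 (0.76) or 3 (0.83). Without wild-type TAC 2, Suclg1 (−0.29), Idh3a (−0.24) and Pccb (−0.33) did not pass. Leaving out single sham libraries ended the calls of Bckdha (sham 1 at −0.36, sham 3 at −0.40) and Pccb (sham 1 at −0.24, sham 3 at −0.29), and Idh3a was lost in 10 of the 14 fits that left out 1 library, at −0.24 to −0.19. The 5 branched-chain genes named first passed in all 22 alternative fits. Without wild-type TAC 1 the medians were −0.26 for branched-chain, −0.17 for TCA, −0.20 for pyruvate and −0.04 for ketone genes, so the pyruvate and ketone medians were lower than with it.

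Other cell types changed with TAC in the same wild-type libraries. Of 10 fibroblast markers 6 rose, and their summed level was 2558 to 3222 CPM in sham and 4182 to 4864 after TAC. Of 9 macrophage markers 4 rose (242 to 288 and 308 to 378 CPM). Without wild-type TAC 1 fewer of both passed. The median log2 fold changes were then 0.92 for fibroblast and 0.31 for macrophage markers, against 1.09 and 0.41 with it. The 12 cardiomyocyte markers summed to 40031 to 45229 CPM in sham and 38919 to 44046 after TAC, with Casq2 higher and Ryr2 lower. In whole hearts fewer cells of a type and less RNA per cell cannot be told apart, and the part of these markers in the member results was not tested.

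TAC in knockout hearts was followed by lower expression of 4 branched-chain genes, each of which also fell in wild type, and by higher Bdh1. Of the 43 members 4 fell and 1 rose, against 6.26% of all genes that fell and 6.73% that rose. All 4 that fell were branched-chain genes (Aldh6a1, Dbt, Mccc2 and Bckdhb), and the one that rose was Bdh1. No pyruvate or TCA gene passed. The medians were −0.11 for branched-chain genes, −0.08 for TCA genes, −0.04 for pyruvate genes and −0.03 for ketone genes, beside −0.01 over all genes. Libraries did not overlap, with TAC lower, for 11 members (11.2% of all genes), and with TAC higher for 1 (10.6%). The branched-chain sum was 2797 CPM ± 105 in sham and 2490 ± 74.2 after TAC (n = 4 and 4).

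Aldh6a1 was at 405, 406, 380 and 364 CPM in knockout sham and at 290, 305, 289 and 295 CPM in knockout TAC. The TAC libraries were tightly grouped and all below sham, and the log2 fold change was −0.40 ± 0.06 (adjusted p = 0.00135). Dbt was at 143, 130, 126 and 123 CPM in sham and at 99.6, 97.9, 111 and 107 CPM after TAC (−0.33 ± 0.07, adjusted p = 0.00705). Mccc2 was at 99.3, 98.6, 89.5 and 94.4 CPM in sham and at 77.2, 79.7, 85.5 and 73.7 CPM after TAC (−0.27 ± 0.07, adjusted p = 0.0159). Neither pair of groups overlapped. Bckdhb was at 74.1, 65.9, 64.1 and 64.2 CPM in sham and at 58.5, 53.7, 56.6 and 54.1 CPM after TAC (−0.27 ± 0.07, adjusted p = 0.029). Bdh1 was at 138, 81.1, 120 and 93.7 CPM in sham and at 183, 229, 243 and 236 CPM after TAC, a rise of 1.04 ± 0.20 (adjusted p = 0.00464). Every knockout TAC library was above every knockout sham library for Bdh1, as the plot of levels by library shows.

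Genes that fell in wild type and did not pass in knockout included Pdk2 (−0.02 ± 0.06, adjusted p = 0.899), Bckdha (−0.03 ± 0.09, 0.883), Pcca (−0.07 ± 0.06, 0.437) and Ivd (−0.18 ± 0.07, 0.0844). Pdk2, for example, was at 381, 390, 372 and 382 CPM in knockout sham and at 398, 384, 374 and 353 CPM in knockout TAC. Ivd was at 477, 433, 423 and 462 CPM in sham and 404, 420, 389 and 373 CPM after TAC. Sdha stood at 1611 to 1739 CPM in sham and 1331 to 1586 after TAC (−0.19 ± 0.06, adjusted p = 0.0595), without overlap. Acat1 stood at 817 to 836 CPM in sham and 636 to 763 after TAC (−0.24 ± 0.08, adjusted p = 0.0662), also without overlap. A gene past the threshold in one genotype and not in the other is not shown to differ between them, and the interaction tests that difference.

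The knockout calls depended on some libraries. Bckdhb and Mccc2 did not pass without knockout sham 1 (−0.22 and −0.25), without knockout sham 2 (−0.28 and −0.26) or without knockout TAC 4 (−0.26 and −0.24), and Bckdhb did not pass without knockout TAC 2 (−0.25). With the clock score as a covariate Aldh6a1 and Bdh1 still passed (−0.37, adjusted p = 0.0375, and 1.16, adjusted p = 0.0452). Dbt (−0.23, adjusted p = 0.158), Bckdhb and Mccc2 did not. In the 10-week libraries alone, 2 sham against 4 TAC, none of the 5 passed, with Aldh6a1 at −0.34 (adjusted p = 0.0798) and Bdh1 at 1.06 (adjusted p = 0.0721), and 16 genes passed in all. In wild type Dbt, Bckdhb, Ivd, Mccc2 and Aldh6a1 passed in both of these fits. In knockout hearts 5 of 10 fibroblast markers and 5 of 9 macrophage markers rose, at summed levels of 2260 to 2668 against 2879 to 3279 CPM and 184 to 251 against 269 to 328 CPM. Their part in the member results was not tested.

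**Figure D3:**
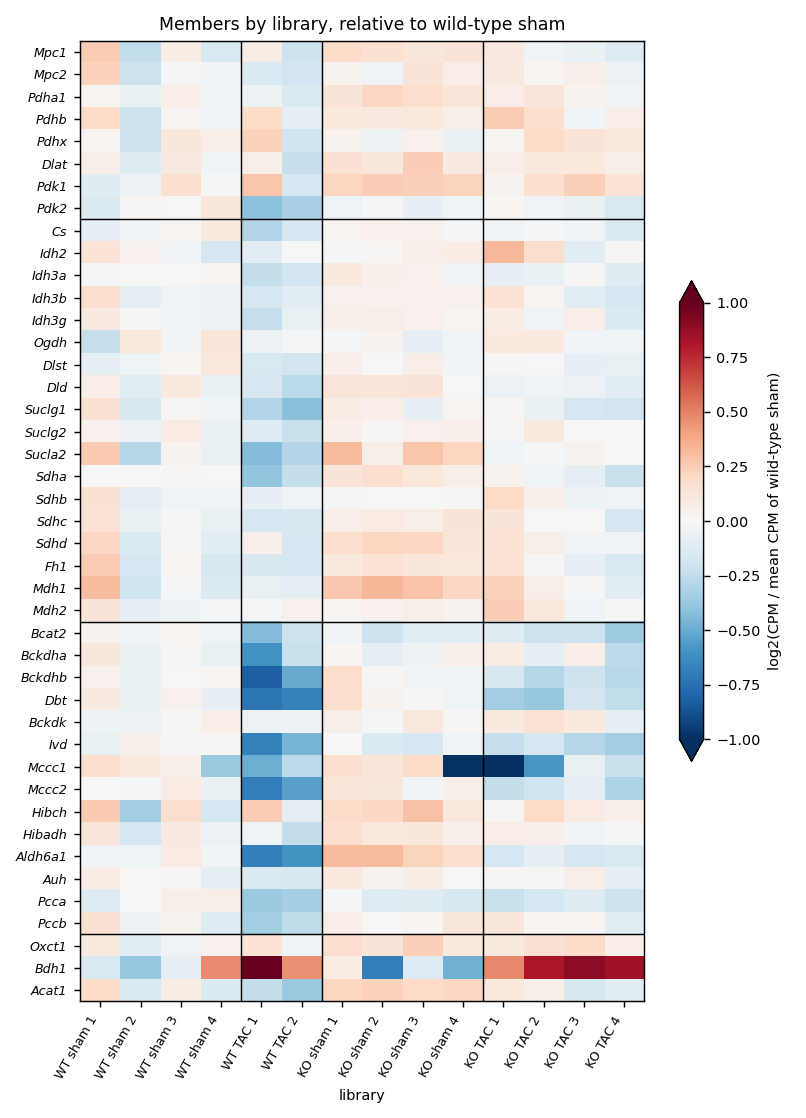
Each member (rows, by step) in each library (columns) as log2 of CPM over the mean CPM of wild-type sham. Red is higher and blue lower, and colours are capped at −1 and 1. Branched-chain genes are bluest in the wild-type TAC libraries, and Mccc1 is blue in knockout sham 4 (91.3 CPM) and knockout TAC 1 (75.3 CPM).

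Between genotypes in sham hearts the members differed little. Aldh6a1 was the single member to pass, higher in knockout by 0.25 ± 0.06 on the log2 scale (adjusted p = 0.0497), against 0.575% of all genes that were higher and 0.313% that were lower (0.888% in all). Its libraries did not overlap, at 317 to 345 CPM in wild type and 364 to 406 CPM in knockout. The call lies at the threshold and was lost in 17 of 22 alternative fits, among them every fit that left out 1 library other than wild-type sham 1, wild-type TAC 1 or wild-type TAC 2, at log2 fold changes of 0.23 to 0.27. Without wild-type sham 1 the count of members that passed was 3. The 43 members had a median of 0.05, with 34 above 0. Libraries did not overlap, with knockout higher, for 6 members, against 6.39% of all genes, and 5.07% of all genes had the knockout lower without overlap. Wild-type sham 1 was the highest library of its group for 25 of the 43 members and wild-type sham 2 the lowest for 23, so the wild-type sham spread was shared across members. Pdha1 was at 1385 to 1470 CPM in knockout sham (0.16 ± 0.06, adjusted p = 0.164), and Acat1 was 0.21 ± 0.08 above wild type (adjusted p = 0.19).

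After TAC 4 of the 14 branched-chain genes were higher in hearts labelled knockout than in those labelled wild type, and the other 10 did not pass, among them Hibch at 0.00 and Mccc1 at −0.09 on the log2 scale. No member of another step passed, and none passed without wild-type TAC 1. The share of all genes that were higher was 0.377%, and 1.11% were lower. The 4 members were Aldh6a1 (0.49 ± 0.07, adjusted p = 0.00292), Mccc2 (0.41 ± 0.08, 0.0224), Dbt (0.41 ± 0.09, 0.027) and Bckdhb (0.42 ± 0.09, 0.0374). All 4 knockout TAC libraries were above both wild-type TAC libraries for each of them, as for 23 members in all, against 11% of all genes. The log2 difference was above 0 for 41 of 43 members (41 also without wild-type TAC 1), with medians of 0.24 in the branched-chain group, 0.15 in the TCA cycle, 0.11 in pyruvate entry and 0.08 in ketone use, beside 0.00 over all genes. These medians were 0.19, 0.14, 0.24 and 0.31 without wild-type TAC 1, beside 0.01 over all genes. The comparison shares its wild-type TAC libraries with that of TAC in wild type, so the values are not independent of it. The branched-chain sum after TAC was 2051 and 2161 CPM in wild-type hearts and 2388 to 2559 CPM in knockout hearts.

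Members outside the branched-chain group stood higher in knockout TAC without passing. Pdk2 had a difference of 0.31 ± 0.08 (adjusted p = 0.0652), with 353 to 398 CPM in knockout and 296 and 314 CPM in wild type. Sdha had 0.24 ± 0.08 (adjusted p = 0.167), Suclg1 0.26 ± 0.09 (0.187), and Acat1 0.28 ± 0.10 (0.211). The groups did not overlap for any of these 3. Pdha1 was at 1249 to 1380 CPM in knockout and 1226 and 1149 CPM in wild type (0.15 ± 0.07, adjusted p = 0.354). Bdh1 was at −0.10 ± 0.24 (adjusted p = 0.897), with the wild-type libraries at both sides of the knockout range.

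**Figure D4:**
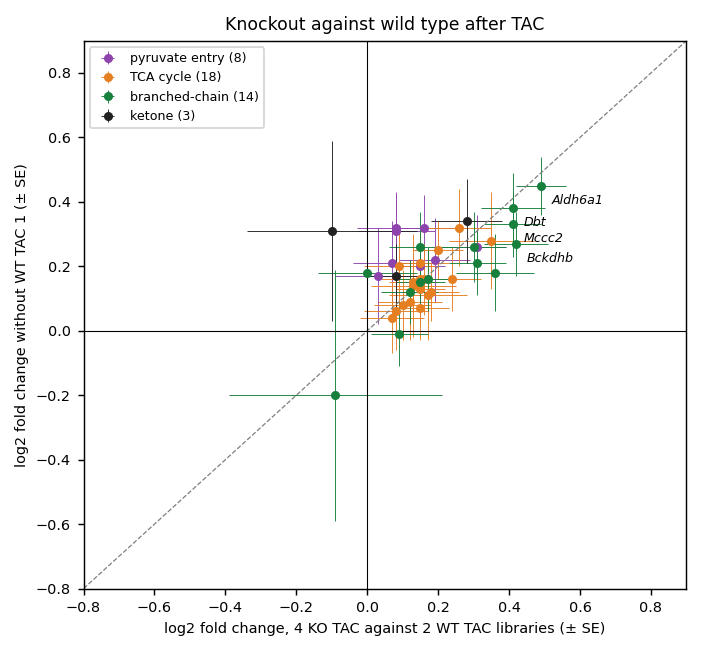
Log2 fold change of each member, knockout TAC against wild-type TAC (x axis, 4 against 2 libraries, ± SE), and the same without the library labelled wild-type TAC 1 (y axis, 4 against 1, ± SE), coloured by step. The dashed line marks equality. Aldh6a1 is at 0.49 and 0.45, Dbt at 0.41 and 0.38, Mccc2 at 0.41 and 0.33 and Bckdhb at 0.42 and 0.27.

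These calls rest on few libraries. Without wild-type TAC 1 no member passed and 46 genes passed in all, with Aldh6a1 at 0.45 ± 0.09 (adjusted p = 0.0634), Dbt at 0.38 ± 0.11 (0.182), Mccc2 at 0.33 ± 0.10 (0.216) and Bckdhb at 0.27 ± 0.10 (0.302). Leaving out that library removes the one whose Clk3 and Gm8730 went against its label, and it also leaves 1 wild-type TAC library. For the 14 branched-chain genes, wild-type TAC 1 was the lower of the pair in 11. Dbt did not pass without wild-type TAC 2 (0.43), Mccc2 and Bckdhb did not pass without knockout TAC 2 (0.40 and 0.44), and Dbt, Mccc2 and Bckdhb did not pass without knockout TAC 3 (0.37, 0.36 and 0.41). Bckdhb was also lost without knockout TAC 1 (0.40), wild-type sham 3, knockout sham 2 or knockout sham 3 (0.42 each). Without both libraries that stood apart in clock score, knockout sham 4 and knockout TAC 3, an alternative added after seeing the data, 1 member passed, Aldh6a1. Of the fibroblast markers 5 of 10 were lower in knockout TAC, at summed levels of 2879 to 3279 against 4182 to 4864 CPM. Without wild-type TAC 1 fewer of them passed, and their median log2 difference was −0.54 (−0.71 with it). The part of these markers in the member differences was not tested.

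Whether TAC acted differently on the members in the 2 genotypes was tested as an interaction, and none of the 43 passed by edgeR or by DESeq2 (0.0192% of all genes passed by edgeR). The smallest adjusted p by edgeR was 0.418, for Ivd, whose log2 difference between the TAC effects was 0.39 ± 0.10. At an unadjusted p under 0.05 there were 9 of the 43 members, against 1022 of the 15651 genes tested. These members were Pdk2 and the 8 branched-chain genes Bckdha, Bckdhb, Dbt, Ivd, Mccc2, Aldh6a1, Pcca and Pccb. Their differences ranged from 0.24 to 0.39, all in the direction of a smaller fall in knockout. Of all 43 members 34 had that sign, against 7700 of the 15651 genes tested. The median was 0.24 for branched-chain genes and 0.00 over all genes. Without the library labelled wild-type TAC 1, 5 of these 9 kept an unadjusted p under 0.05, namely Pdk2 (0.31), Dbt (0.34), Ivd (0.29), Mccc2 (0.27) and Pcca (0.26). The other 4 did not, with Bckdha at 0.19, Bckdhb at 0.24, Aldh6a1 at 0.19 and Pccb at 0.21, so the difference of Bckdha was 0.38 with that library and 0.19 without it, and that of Bckdhb 0.39 and 0.24. Pdhx (0.32) and Suclg1 (0.30) then had an unadjusted p under 0.05, no member passed after adjustment, and the branched-chain median was 0.19, beside 0.01 over all genes.

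Mccc1 differed from its partner Mccc2 in how it varied. Mccc1 (ENSMUSG00000027709.9, chromosome 3, 35959312 to 36000678) was at 203, 194, 187 and 140 CPM in wild-type sham, at 203, 197, 207 and 91.3 CPM in knockout sham, at 129 and 151 CPM in wild-type TAC and at 75.3, 121, 172 and 155 CPM in knockout TAC. Mccc2 stayed within 89.5 to 99.3 CPM in knockout sham and 73.7 to 85.5 CPM in knockout TAC. The low library knockout sham 4 was the one whose clock score lay in the TAC range, and the highest knockout TAC library, knockout TAC 3, was the one whose score lay near the sham range. At scores like that of knockout sham 4, knockout TAC 4 (−1.25) had 155 CPM and wild-type TAC 2 (−1.24) had 151 CPM. Knockout TAC 1 (−1) had 75.3 CPM. The relation of Mccc1 to the score was itself not tested. The coding part of Mccc1 followed the whole gene, at 76.3 CPM in knockout sham 4, where the other 3 libraries had 170 to 181 CPM. With the clock score as a covariate the TAC estimates for Mccc1 turned from −0.37 to 0.58 in wild type (adjusted p = 0.274) and from −0.42 to 0.31 in knockout (adjusted p = 0.454), and none of these passed.

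Other genes of the same pathways were read from a list drawn up by function, and 61 of its 63 genes were tested. After TAC in wild type 15 fell (24.6%, against 5.3% of all genes) and 2 rose (3.28%, against 6.91%). In knockout 9 fell (14.8%, against 6.26%) and 5 rose (8.2%, against 6.73%), so the shares that rose were below or near those of all genes. None passed between genotypes in sham hearts, and 2 were higher in knockout after TAC (3.28%, against 0.377%). Without wild-type TAC 1, which leaves 1 wild-type TAC library, fewer of them and fewer of all genes fell in wild type. The calls between genotypes after TAC were then lost. Their median log2 fold change after TAC in wild type was −0.23 (−0.18 with that library), beside 0.00 over all genes. For knockout against wild type after TAC it was 0.21 (0.16 with that library), beside 0.01 over all genes. By step, the genes that fell in wild type were 6 of 18 in branched-chain use, 5 of 20 around the TCA cycle, 4 of 18 around pyruvate and 0 of 5 in ketone use. In knockout they were 3, 3, 2 and 1.

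Acadsb, the short branched-chain acyl-CoA dehydrogenase of the isoleucine route, was at 216, 219, 229 and 210 CPM in wild-type sham and 168 and 161 CPM in wild-type TAC, and fell by 0.41 ± 0.07 on the log2 scale (adjusted p = 0.00126). In knockout it was at 245, 254, 225 and 236 CPM in sham and 198, 198, 204 and 193 CPM after TAC, and fell by 0.28 ± 0.06 (adjusted p = 0.00631). Neither genotype showed overlap between surgeries. Mut, the methylmalonyl-CoA mutase that follows propionyl-CoA carboxylase, was at 193, 192, 210 and 180 CPM in wild-type sham and 145 and 143 CPM after TAC (−0.43 ± 0.08, adjusted p = 0.00179). In knockout Mut was at 234, 220, 228 and 213 CPM in sham and 170, 184, 185 and 171 CPM after TAC (−0.33 ± 0.06, adjusted p = 0.00412). With the clock score as a covariate neither gene passed in wild type (Acadsb −0.37, adjusted p = 0.0548, and Mut −0.35, 0.0866) or in knockout (−0.24, 0.107, and −0.27, 0.0949). In the 10-week libraries both passed in wild type and neither in knockout (−0.22, adjusted p = 0.183, and −0.31, 0.116).

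Ppm1k in knockout was at 249, 281, 259 and 229 CPM in sham and at 139, 163, 149 and 134 CPM after TAC, and fell by 0.80 ± 0.11 (adjusted p = 0.000834), a call lost in the 10-week libraries (−0.74, adjusted p = 0.0588). After TAC it was higher in knockout than in wild type by 0.57 ± 0.13 (adjusted p = 0.0456), and this difference was 0.46 and did not pass without wild-type TAC 1 (adjusted p = 0.288). That call was lost in 15 of 22 alternative fits, 11 of them fits that left out 1 library (0.46 to 0.69). Ogdhl, a relative of the E1 subunit of oxoglutarate dehydrogenase, was at 219, 247, 270 and 334 CPM in wild-type sham and at 145 and 138 CPM in wild-type TAC (−0.92 ± 0.16, adjusted p = 0.00136). In knockout it was at 309, 248, 220 and 270 CPM in sham and 253, 243, 198 and 235 CPM after TAC (−0.17 ± 0.12, adjusted p = 0.367). The groups overlapped in knockout and not in wild type. Ogdhl was higher in knockout TAC than in wild-type TAC by 0.71 ± 0.16 (adjusted p = 0.0342), and its interaction did not pass (0.74 ± 0.20, adjusted p = 0.401). The genotype call of Ogdhl was lost without wild-type sham 3 (0.71), wild-type TAC 1 (0.75), wild-type TAC 2 (0.68) or knockout TAC 1, 2 or 4 (0.67, 0.69 and 0.70). Its member relative Ogdh was at −0.04 ± 0.09 after TAC in wild type.

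Slc16a3, the lactate exporter MCT4, was a low-level gene that rose in both genotypes. It was at 1.48, 2.34, 1.59 and 1.89 CPM in wild-type sham and 4.45 and 4.82 CPM after TAC, a rise of 1.32 ± 0.21 (adjusted p = 0.000845). In knockout it was at 1.65, 1.76, 1.27 and 1.83 CPM in sham and 2.49, 2.57, 2.72 and 3.17 CPM after TAC, a rise of 0.75 ± 0.19 (adjusted p = 0.02). Aacs, the cytosolic acetoacetyl-CoA synthetase, was at 5.46, 7.43, 5.64 and 6.96 CPM in wild-type sham and 7.29 and 7.63 CPM after TAC (0.22 ± 0.16, adjusted p = 0.424). In knockout it was at 4.61, 4.82, 4.65 and 5.55 CPM in sham and 9.05, 7.91, 6.79 and 8.52 CPM after TAC, and rose by 0.71 ± 0.14 (adjusted p = 0.00477). In knockout neither passed with the clock score as a covariate (Slc16a3 0.70, adjusted p = 0.17, and Aacs 0.52, 0.125) or in the 10-week libraries (0.83, 0.147, and 0.65, 0.118), while Slc16a3 in wild type passed in all 22 alternative fits. Both are expressed far below the members.

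Related mitochondrial gene lists gave a scale for the branched-chain counts. After TAC in wild type 13 of 25 fatty acid oxidation genes fell (median −0.38), against 9 of 14 branched-chain genes (median −0.36) and 0 of 26 respiratory chain genes (median −0.06). In knockout the counts were 6 of 25 (median −0.20), 4 of 14 (−0.11) and 1 of 26 (−0.02). Without wild-type TAC 1 the wild-type medians were −0.29, −0.26 and −0.07 in the same order, with fewer calls in the fatty acid and branched-chain lists. The difference between the lists was not tested. Of 11 regulators of mitochondrial genes none passed after TAC in either genotype, and after TAC Ppargc1a, which encodes the coactivator PGC-1 alpha, was higher in knockout (0.79 ± 0.16, adjusted p = 0.0218). Without wild-type TAC 1 the difference in Ppargc1a was 0.67 ± 0.21 and did not pass (adjusted p = 0.212), nor did it in the 10-week libraries (0.79, adjusted p = 0.084).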

How the data were processed

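Poly(A)-enriched, strand-specific RNA-seq libraries of whole hearts were made, per the labels' protocols. STAR 2.4.2a, Picard 2.10.3 and bcl2fastq 2.17.1.14 are listed in the submitters' processing notes. For the counting tool, its strand setting and reads that map to several places, no statement is given in the sources used here. The antisense partner of Bckdha and the processed copy of Mpc1 are therefore named beside them. Antisense genes also share 18.6% of the exonic bases of Aldh6a1 (Bbof1, 4.76 to 8.52 CPM) and 13.7% of Bdh1 (Gm15743, 0.511 to 2.97). They share 16.1% of Pdha1 (Map3k15, 4.97 to 9.02), 15.9% of Bcat2 (0610005C13Rik, 0.148 to 0.554) and 12.6% of Oxct1 (BC037032, 4.15 to 11.9). Mpc1 shares 23.1% (4930506C21Rik, 0.33 to 0.826) and Pcca 4.63% (Ggact, 10.6 to 17.2). Mccc1 shares 5.6% with its antisense genes together, and Idh3b and Mdh1 have smaller overlaps. Hibadh shares 1.2% with Gm24355, a gene on the same strand. The deposited values are raw read counts per gene, per the file headers, with coding and untranslated parts that add up to the gene count in every file. Of 51912 identifiers 51633 were found in GENCODE M21 (GRCm38), which supplied symbols and positions. Reads in no feature (15.3% ± 2.42, SD, n = 14) and ambiguous reads (1.52% ± 0.048) stayed out of library sizes.

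Counts were filtered with filterByExpr (minimum count 10, leaving 15651 genes), scaled by TMM and tested in R 4.3.3 by the quasi-likelihood test of edgeR 4.0.16, all 14 libraries in 1 fit with 1 coefficient per group, since wild-type TAC has 2 libraries. P-values were adjusted by Benjamini-Hochberg over all genes tested (threshold 0.05). The fit was tested on simulated data, in which genes drawn at random from all 15651 tested were changed. For TAC in wild type it recovered 70% of 2-fold changes and 21% of changes of 0.5 on the log2 scale. These shares cover genes of all levels and do not give the power for the members. A gene that did not pass is not shown to be unchanged. Standard errors are the size of the log2 fold change divided by the square root of F. DESeq2 1.42.0, its size factors, no filter, the coding part alone, the 10-week libraries, the compared groups alone, a clock score covariate and leaving out each library were alternatives. Libraries within a group differed by more than sampling noise (lowest chi-square per degree of freedom 3.43), which does not show that they came from separate mice. All libraries were counted as replicates. Their numbers, given in accession order, do not pair samples.

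The members and gene lists were chosen with earlier results of these data known. Values by library are given for up to 6 members of smallest p among those past the threshold in each comparison, for 2 members of smallest p in each step, and for up to 4 other pathway genes of smallest p in each comparison.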

Additional observations from a re-analysis of the deposited data

Results flagged for a closer look

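In groups of 4 libraries, a library was singled out when its gap to the nearest other library was a larger share of the range of the group than Dixon's 95% critical value. This happened for 7 of 153 groups tested, where chance gives about 1 in 20. In knockout sham 4 Mccc1 was at 91.3 CPM, and the other 3 libraries had 197 to 207 CPM. The clock gene score of the same library was −1.26, against −3.32 to −3.25, and its Dld, the E3 subunit shared by the dehydrogenase complexes, was at 642 CPM, against 701 to 706. Cs, citrate synthase, was at 1108 CPM in knockout TAC 4, against 1194 to 1205. Suclg2 was at 210 CPM in knockout sham 2, against 214 to 215, a gap of little size. Aldh6a1 was at 345 CPM in wild-type sham 3, against 317 to 320. Ppm1k was at 153 CPM in wild-type sham 4, against 205 to 215. No test of a difference between the genotypes in the TAC effect passed for a member.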

How the results depend on the processing

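No value changed sign in its call under any alternative run. For TAC in wild type, the 13 members that fell became 8 with the 10-week libraries, 5 with the compared groups alone and 5 with the clock score covariate, the 1 that rose became 0 in each of these, and the 1912 genes called over all became 933, 1068 and 467, and 1169 with coding counts. Leaving out 1 library gave 5 to 14 members lower, 0 to 1 higher and 523 to 2208 genes. For TAC in knockout, the 4 that fell became 7 by DESeq2, 2 without the filter, 0 with the 10-week libraries, 9 with the compared groups and 1 with the clock covariate. The 1 that rose became 0 with the 10-week libraries. The 2033 genes became 16 with the 10-week libraries, 188 with the clock covariate and 1005 with coding counts. Leaving out 1 library gave 2 to 6 lower and 796 to 2325 genes. Between genotypes in sham, 139 genes became 525 by DESeq2, 387 without the filter, 0 with the 10-week libraries, 83 with the compared groups, 307 with the clock covariate and 92 with coding counts, or 8 to 525 without 1 library. The 1 member higher became 0 with DESeq2 size factors, without the filter, with the 10-week libraries, the compared groups, coding counts, or without the 2 libraries apart in clock score, and 0 to 3 without 1 library. After TAC, 232 genes between genotypes became 475 by DESeq2, 525 without the filter, 121 with the 10-week libraries, 60 with the compared groups, 145 with coding counts and 149 without the 2 libraries apart, or 46 to 357 without 1 library. The 4 members higher became 7, 4, 2, 1, 2 and 1 in the same order, or 0 to 5. The interaction called 3 genes, 37 by DESeq2, 66 without the filter, 0 with the 10-week libraries or coding counts, 1 with the clock covariate or without the 2 libraries apart, and 0 to 32 without 1 library. Fewer libraries enter the 10-week and leave-one-out fits. For the other shifts the cause was not tested. No paired analysis was possible because replicate numbers follow the order of deposit.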
